A study of Mus musculus with 18 samples.

Results

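The neutrophil chemokines of the ELR CXC group were followed through the first 4 h of exposure of mouse immune cells to an extract of cell wall. The group was taken as the probe sets whose annotated symbol is Cxcl1, Cxcl2, Cxcl3, Cxcl5, Ppbp or Pf4, which gave 8 probe sets for 6 genes, out of 45101 probe sets and 18194 genes with a probe set of a single symbol. The label fits 5 of the 6 genes, since the product of Pf4 is a CXC chemokine without the glutamate, leucine and arginine triplet that names the group. Cxcl1 has 3 probe sets and each of the others has 1.

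ELR CXC chemokines are small secreted proteins that bind the receptor CXCR2 on neutrophils and draw these cells out of the blood into inflamed tissue. Macrophages make Cxcl1, Cxcl2 and Cxcl3 within hours of sensing microbial products, through the transcription factor NF-kB, and their messages are unstable. Ppbp and Pf4 encode chemokines stored in the alpha granules of platelets, and both genes are also transcribed in some macrophages. In the mouse the genes lie side by side on chromosome 5, in the order Cxcl5, Ppbp, Pf4, Cxcl3, Cxcl1, Cxcl2, with Cxcl15 between Cxcl3 and Cxcl1.

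The upstream sequences of Cxcl1, Cxcl2 and Cxcl3 are shown because these 3 genes rose with different timing and their proximal promoters held the same run of bases. Each sequence is the 250 bases before the annotated start in RefSeq, build GRCm38.p6, plus strand, and capitals mark the bases that match an NF-kB consensus. They lie at chr5:90890995-90891244 for Cxcl1, chr5:90903649-90903898 for Cxcl2 and chr5:90785851-90786100 for Cxcl3.
Cxcl1: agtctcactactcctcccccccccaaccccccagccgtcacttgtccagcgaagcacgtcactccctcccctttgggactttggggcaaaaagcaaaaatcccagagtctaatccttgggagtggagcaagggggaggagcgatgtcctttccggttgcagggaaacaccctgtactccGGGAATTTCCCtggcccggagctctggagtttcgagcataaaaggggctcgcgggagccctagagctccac
Cxcl2: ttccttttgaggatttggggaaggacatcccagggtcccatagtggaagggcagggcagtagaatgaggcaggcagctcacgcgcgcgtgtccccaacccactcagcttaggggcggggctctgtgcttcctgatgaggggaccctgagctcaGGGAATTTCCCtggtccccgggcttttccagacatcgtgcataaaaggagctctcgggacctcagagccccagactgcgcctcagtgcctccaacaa
Cxcl3: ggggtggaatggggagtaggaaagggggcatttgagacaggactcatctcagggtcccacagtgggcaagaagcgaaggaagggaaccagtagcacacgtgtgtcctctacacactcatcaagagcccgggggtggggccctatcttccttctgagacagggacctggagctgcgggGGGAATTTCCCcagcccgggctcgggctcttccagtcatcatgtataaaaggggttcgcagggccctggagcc
The capitals hold 2 overlapping matches, 1 on each strand, that end 61 bases before the start in Cxcl1, 87 in Cxcl2 and 63 in Cxcl3. The NF-kB consensus was found in 2382 of 32841 promoters of this length (7.25%), either strand counted. The run of 11 bases itself, chosen after the sequences were seen, was found in 14 of the 32841 (0.0426%). Neither the Ppbp nor the Pf4 promoter held a match, which says only that these letters are not in the windows. The table of promoters held 5 of the 6 genes, and Cxcl5 was not among them. Of the other motifs searched on both strands, TATAAA (12.4% of promoters) was found in Cxcl3 and Ppbp, TGANTCA, the AP-1 consensus (6.75%), in Ppbp, TTGCNNAA, a C/EBP consensus (9.57%), in Pf4, and TGACGTCA, the CRE (1.55%), in none of the 5. A match is a description of the sequence, since no binding was measured here.

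Total RNA was hybridised to 18 Affymetrix arrays, 6 each at 0 h, 1 h and 4 h. The 0 h samples are the controls. The series' design text calls the mice knockouts, while no label names a genotype, strain, tissue, cell type, age or source of the extract, so a time point may mix genotypes. No source states whether the 6 samples per time were separate animals or cultures, and the p-values then measure the spread between these samples alone, part of which may be technical. Titles carry an array code of unstated meaning, which group as 12 to 22, 32 to 37 and 44 to 54, each range with 2 arrays per time. Values are MAS5 signals, a linear brightness, and fold changes are of log2(signal + 16), which understates the change of dim genes. Probe sets brighter than their array's median on 4 or more of the 18 arrays were tested, 25775 in all. "Rose" and "fell" mean an adjusted p under 0.05 in a limma fit over these probe sets. Precision is limited by how few arrays there are.

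All 11 macrophage markers with a probe set passed the filter on dim probe sets, with a summed signal between 198748 and 272586 on single arrays, while none of the mast cell, T cell or B cell markers passed the filter. Of the neutrophil markers 7 of 10 passed, with Cxcr2 below the array median on all 18 arrays, and of the platelet and megakaryocyte markers 7 of 10 passed at a summed signal of only 735.8 to 1539.4. Of the endothelial markers 4 of 5 passed, and of the epithelial markers 2 of 5. The summed stromal markers stood higher from range to range, at 911 to 1582 in codes 12 to 22, 2883 to 5381 in codes 32 to 37 and 11432 to 16376 in codes 44 to 54. The array labelled 1 h with code 14 stood apart: it had the lowest 1 h signal for Cxcl1, Cxcl2 and Cxcl3. On it the 8 genes of the pathway lists below that rose at 1 h, a set chosen after the values were seen, were all at their lowest among the 1 h arrays. Its signal lay within the span of the 0 h arrays for Il1b, Nfkbiz and Zc3h12a, 3 of the 8, and for Cxcl3, and above all 0 h arrays for the other 5, as for Tnf, which stood at 1557 there, at 34.3 to 263.3 at 0 h and between 10864 and 19647 on the other 1 h arrays. Its 1 h label is thus in doubt and was kept, since whether it is right was not tested. Calls at 1 h are given with it, and those that change without it are named.

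All 8 probe sets passed the filter. Cxcl5 did so only through its 4 h values, exceeding the array median on 7 arrays, of which 0 were at 0 h, 1 at 1 h and 6 at 4 h. Cxcl3 exceeded it on 15 arrays. At 1 h 3 of the 6 genes rose, Cxcl1, Cxcl2 and Cxcl3, where 0.613% of all tested probe sets were called higher, and the same 3 rose without the array with code 14, where 1.20% were. These 1 h calls depend on the arrays and the block used. In the 12 arrays with codes 12 to 37, which form 4 runs of neighbouring codes with 1 array of each time, 1 of the 3, Cxcl2, passed without a block (limma, adjusted p = 0.0435), and 0 of the 6 passed with the run as a block (limma, 3 unadjusted), as did 0% of all probe sets. No label says what such a run shares, and 1 of the 4 runs holds the array with code 14. At 4 h against 0 h Cxcl1, Cxcl2 and Cxcl3 rose, 3 of the 5 genes other than Cxcl5, where 9.95% of all tested were called higher, and between 1 h and 4 h 1 of these 5 rose, Cxcl3, against 7.71%. Cxcl5 was also called in both, as a gene that entered the test through the group in which it was high. With no filter, so that its entry depends on no group, all 45037 probe sets other than controls were tested and 0.271%, 4.83% and 3.55% were called higher in the 3 comparisons. The members called were then 3, 4 and 2 of the 6, Cxcl5 among them in the later 2. None of the 6 fell in any of the comparisons (limma, 0 also at an unadjusted p under 0.05), while 0.140%, 23.1% and 16.7% of all probe sets were called lower. The median log2 fold change of the 6 genes was 2.03 at 1 h, 5.09 at 4 h and 1.09 between 1 h and 4 h, beside -0.04, -0.22 and -0.17 for all probe sets tested. These medians include Cxcl5, which entered through its 4 h values. For the 5 genes other than Cxcl5, in the order Cxcl1, Cxcl2, Cxcl3, Ppbp and Pf4, the change at 4 h against 0 h was 6.78, 5.47, 7.63, 1.26 and 0.13. Between 1 h and 4 h it was 0.97, 0.42, 4.53, 1.22 and 0.17. The same numbers of members passed after quantile normalization and after median centring. Those scalings moved the share of calls that were higher at 4 h against 0 h from 30.1% to 45.1% and 61.1%, and between 1 h and 4 h from 31.6% to 47.1% and 64.6%.

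**Figure D1:**
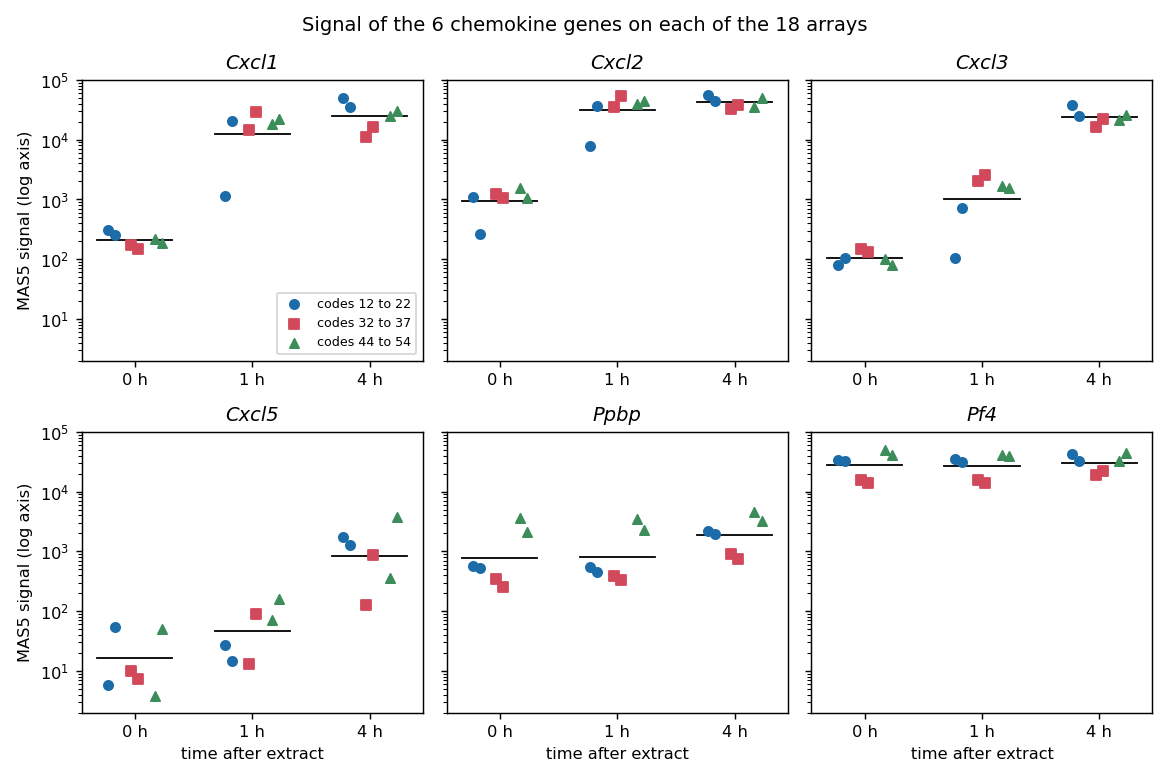
Signal of the 6 chemokine genes on each of the 18 arrays, on a log axis, by hours after the extract, with the 3 ranges of array codes as symbols and the mean of log2(signal + 16) at each time, turned back into a signal, as a line. Cxcl1 and Cxcl2 are near their 4 h signals by 1 h, Cxcl3 and Cxcl5 are brightest at 4 h, and Ppbp and Pf4 separate by code range.

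Cxcl1, the mouse counterpart of the human GRO chemokines and a main neutrophil attractant in the mouse, was dim at 0 h and bright within 1 h. Its signal at 0 h ran from 150.2 to 303.2 with a median of 203.9, a mean of 214.8 ± 57.4 (SD, n = 6). At 1 h it ran from 1129.7 to 28560.8 with a median of 19486 (mean 17537 ± 9243), and at 4 h from 11109 to 49197 with a median of 27116 (mean 27599.6 ± 13606). The lowest 1 h value was above the highest 0 h value, while the 1 h and 4 h arrays overlapped. Cxcl1 rose by 5.81 ± 0.59 (SE) at 1 h, a 56.0-fold change (limma, adjusted p = 4.66e-05), and by 6.78 ± 0.59 at 4 h, 109.8-fold (adjusted p = 2.31e-07). The change between 1 h and 4 h was 0.97 ± 0.59, with an interval of -0.27 to 2.21, and did not pass (adjusted p = 0.251). Without the array with code 14 the 1 h rise was 6.50 and the later change 0.28 (adjusted p = 0.566). With runs of codes as a block on 12 arrays the 1 h change was 5.45 and did not pass (limma, adjusted p = 0.33), nor did it in those arrays without the block (adjusted p = 0.0785).

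The other probe sets of Cxcl1 had the same order of times. The second rose by 5.97 ± 0.58 at 1 h and 6.96 ± 0.58 at 4 h (limma, adjusted p = 4.25e-05 and 1.52e-07). The third, whose suffix _x_at marks probes that can bind other sequences, rose by 3.42 ± 0.51 and 4.25 ± 0.51 (adjusted p = 0.00251 and 7.82e-06). Their changes between 1 h and 4 h were 0.99 and 0.83 and did not pass (adjusted p = 0.238 and 0.265). Without the array with code 14 they rose by 6.65 and 3.89 at 1 h, and the later changes were 0.31 and 0.36 (limma, adjusted p = 0.534 and 0.58). Cross-hybridisation between the paralogues was not tested.

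Cxcl2, an attractant that macrophages release early, already stood at a signal of 268.1 to 1579.4 at 0 h, with a median of 1073 (mean 1043 ± 429, n = 6). At 1 h it ran from 7880 to 54106 with a median of 37783 (mean 36271 ± 15486), and at 4 h from 32983 to 55610 with a median of 40772 (mean 42687 ± 8987). Every 1 h array lay above every 0 h array, and 5 of the 6 arrays at 1 h fell within the span of the 4 h arrays. Cxcl2 rose by 5.06 ± 0.42 at 1 h, 33.3-fold, with the smallest p of all 25775 probe sets in that comparison (limma, adjusted p = 1.30e-05). At 4 h it stood 5.47 ± 0.42 above 0 h, 44.4-fold (adjusted p = 7.42e-08). The change between 1 h and 4 h was 0.42 ± 0.42, interval -0.47 to 1.30 (adjusted p = 0.518), and 0.02 without the array with code 14, where the 1 h rise was 5.46. With the block of runs the 1 h change was 5.08 and did not pass (limma, adjusted p = 0.3). The brightest probe set of each 4 h array read 44786 to 62019, so Cxcl2 lay near the top of the scale, and a ceiling on its later change was not tested.

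Cxcl3, the third of the closely related trio, followed another course. Its signal was 79.8 to 145.5 at 0 h with a median of 103.2 (mean 107.4 ± 26.6, n = 6). At 1 h it ran from 106.0 to 2591 with a median of 1603 (mean 1449 ± 899.6), and at 4 h from 16161 to 38176 with a median of 23582 (mean 24844 ± 7388). The 1 h value on the array with code 14 lay within the 0 h values, and all 4 h arrays lay far above all 1 h arrays. Cxcl3 rose by 3.11 ± 0.53 at 1 h, 8.62-fold (limma, adjusted p = 0.00596), and by 4.53 ± 0.53 from 1 h to 4 h, 23.0-fold (adjusted p = 8.75e-06). Its rise of 7.63 ± 0.53 at 4 h against 0 h, 198.4-fold (adjusted p = 3.14e-08), was the largest log2 rise of all 25775 probe sets. Without the array with code 14 the 1 h rise was 3.73 and the later rise 3.91 (adjusted p = 2.51e-07 and 2.17e-07). In the 12 arrays with codes 12 to 37 the 1 h change was 2.70 and did not pass with runs as a block (limma, adjusted p = 0.479) or without it (adjusted p = 0.56).

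Cxcl5, which encodes the attractant LIX, was at the bottom of the scale until 4 h. Its signal was 3.83 to 53.3 at 0 h with a median of 8.56 (mean 21.7 ± 23.4, n = 6) and 12.9 to 160.9 at 1 h with a median of 49.1 (mean 62.5 ± 57.3). At 4 h it ran from 124.7 to 3678 with a median of 1082 (mean 1339.5 ± 1287). The 4 h arrays overlapped the 1 h arrays at 1 point, where the lowest 4 h signal was below the highest at 1 h. The change at 1 h was 0.95 ± 0.66, interval -0.44 to 2.33, and did not pass (limma, adjusted p = 0.978). Without the array with code 14 it was 1.05 (adjusted p = 0.89). In the fit with no filter Cxcl5 had risen at 4 h, both against the controls (limma, adjusted p = 6.06e-05) and against 1 h (adjusted p = 8.24e-04). The size of its rise depends on the pseudocount, since its early signals are close to it: the log2 change at 4 h against 0 h was 4.71 ± 0.66 with 16, 5.86 with 1 and 3.49 with 64, and no fold is given. Against 1 h it was 3.77 ± 0.66 with 16 and 4.26 with 1.

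**Figure D2:**
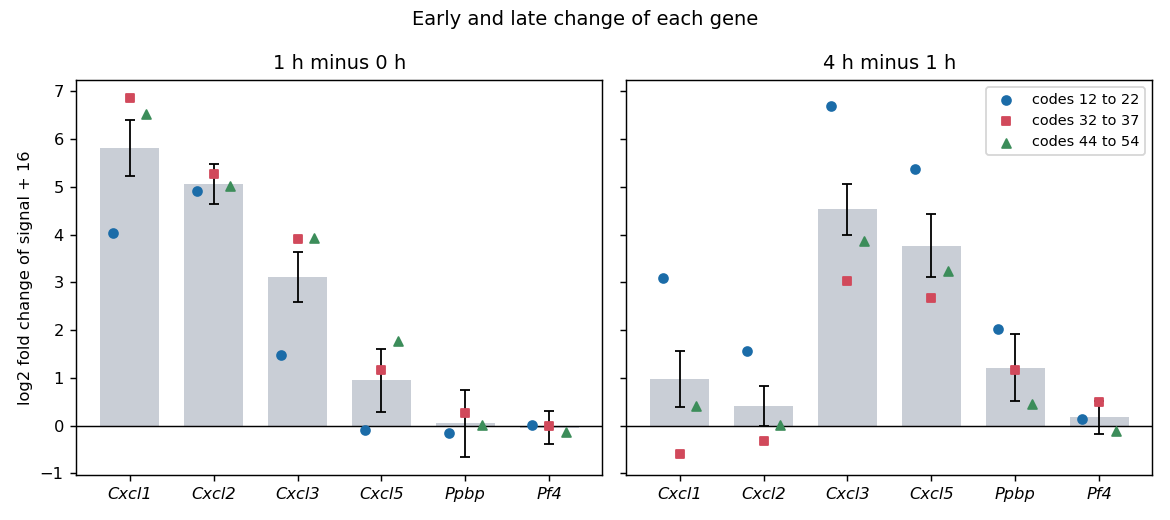
Early change (1 h minus 0 h, left) and late change (4 h minus 1 h, right) of each gene as log2 fold change of signal + 16, with bars for the limma estimate over all arrays, error bars of 1 SE and symbols for the change within each range of array codes. Cxcl1 and Cxcl2 have tall early bars (5.81 and 5.06) and short late ones (0.97 and 0.42), while Cxcl3 and Cxcl5 have their taller bar on the right (4.53 and 3.77).

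The share of the 4 h log2 rise that was present at 1 h puts the 4 risen genes on 1 scale, as a description, since both quantities share the 0 h arrays. It was 92.4% for Cxcl2, 85.7% for Cxcl1, 40.7% for Cxcl3 and 20.1% for Cxcl5. The Cxcl5 share moved with the pseudocount, to 27.2% with 1, while the other shares stayed within 38.3% to 41.6% for Cxcl3, 85.2% to 85.8% for Cxcl1 and 92.3% to 92.4% for Cxcl2. Without the array with code 14 it was 99.7%, 95.9%, 48.8% and 22.3%. On the linear scale the mean 1 h signal was 85.0% of the mean 4 h signal for Cxcl2, 63.5% for Cxcl1, 5.83% for Cxcl3 and 4.66% for Cxcl5. In codes 32 to 37 the shares of the log2 rise were 106.5% for Cxcl2 and 109.5% for Cxcl1, in codes 44 to 54 they were 99.7% and 94.0%, and in codes 12 to 22, which hold the array with code 14, 76.0% and 56.6%. Cxcl3 stood at 56.4%, 50.4% and 18.2% in the same ranges, below both genes in each of them, and Cxcl5 at 30.3%, 35.4% and -1.87%.

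**Figure D3:**
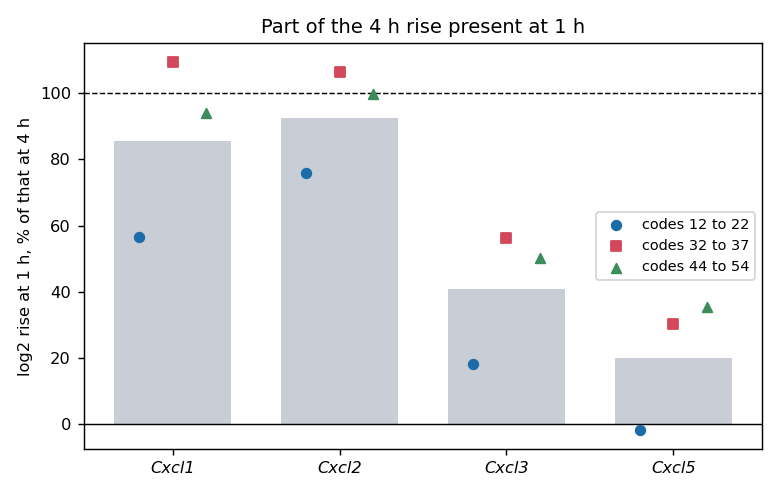
Log2 rise at 1 h as a percentage of that at 4 h, with bars over all arrays and symbols for each range of array codes, the dashed line marking 100%. Cxcl1 and Cxcl2 reach 85.7% and 92.4%, and Cxcl3 and Cxcl5 40.7% and 20.1%.

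Whether 2 genes changed unequally was tested on the difference of their log2 values on the same array, compared between times by an exact two-sided permutation test. All 15 pairs were tested in 3 comparisons, and p-values were adjusted over the 45 tests. The smallest p that 6 against 6 arrays allow is 0.00216, which adjusts here to 0.00487. At an adjusted p under 0.05, 32 of the 45 differences passed, and 34 when labels were permuted within code ranges only. The 45 tests reuse the same 6 genes, and pairs of other probe sets were not tested, so no share stands beside this count. Differences against Cxcl5 depend on the pseudocount, and without them 21 of 30 passed, as did 21 of 30 without the array with code 14. Relative to Cxcl3, Cxcl1 gained 2.70 at 1 h and lost 3.55 between 1 h and 4 h (exact permutation test, adjusted p = 0.00487 for both). Relative to Cxcl3, Cxcl2 gained 1.95 and then lost 4.11 (exact permutation, adjusted p = 0.00487 for both). With code 14 left out, the gains were 2.77 and 1.73 and the losses 3.63 and 3.89, and all 4 passed (exact permutation, adjusted p = 0.00443 to 0.00812). At 4 h against 0 h Cxcl3 had risen more than Cxcl2 by 2.16 (exact permutation, adjusted p = 0.00487) and more than Cxcl1 by 0.85 (adjusted p = 0.0377).

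Cxcl1 and Cxcl2 were not told apart in the first hour. The difference of their 1 h changes was 0.75 (exact permutation, p = 0.18, adjusted p = 0.219), and that of their later changes 0.56 (adjusted p = 0.198). Over the whole 4 h Cxcl1 rose more than Cxcl2 by 1.31 (exact permutation, adjusted p = 0.0426). Leaving out code 14, the 1 h difference was 1.04 (exact permutation, adjusted p = 0.0773). The 0 h array with code 18 had a Cxcl2 signal of 268.1 where the other 5 had 1049 to 1579, and without it the 1 h difference became 1.15 and passed (adjusted p = 0.0357).

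**Figure D4:**
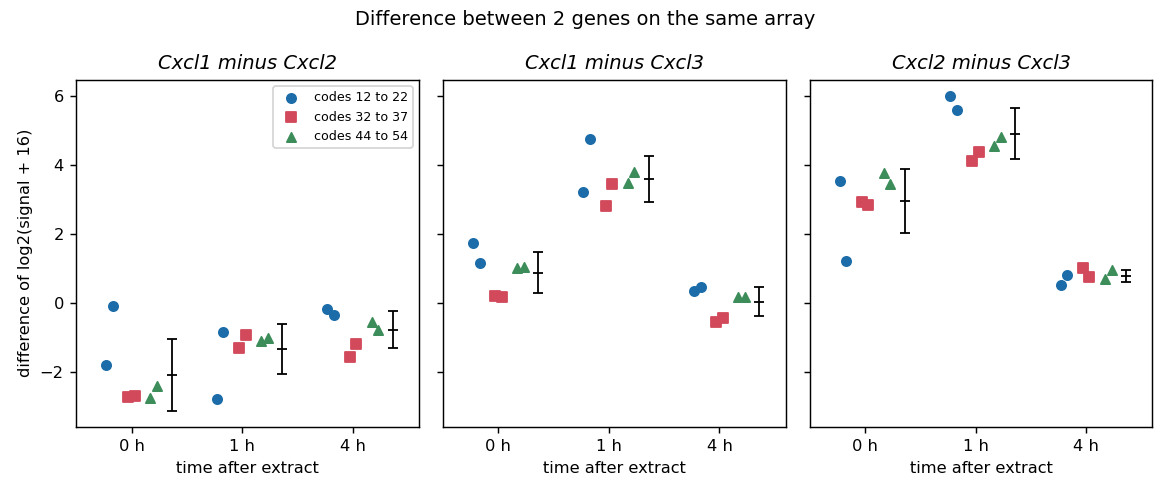
Difference of log2(signal + 16) between 2 genes on the same array, by hours after the extract, for Cxcl1 minus Cxcl2, Cxcl1 minus Cxcl3 and Cxcl2 minus Cxcl3, with symbols for the code ranges and a tick and bar for the mean ± SD of 6 arrays. The height depends on the probe sets, so the change between times is what can be read: for Cxcl2 minus Cxcl3 the mean goes from 2.96 at 0 h to 4.91 at 1 h and 0.80 at 4 h.

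Ppbp encodes the precursor of platelet basic protein, from which a neutrophil attractant is cut. Its signal ran from 248.6 to 3568 at 0 h with a median of 550.0 (mean 1223 ± 1331, n = 6). At 1 h it ran from 332.5 to 3417 with a median of 493.2 (mean 1226 ± 1297), and at 4 h from 733.1 to 4510.0 with a median of 2061 (mean 2242 ± 1425). The arrays of the 3 times overlapped, and at each time both arrays with codes 44 to 54 were the highest and both with codes 32 to 37 the lowest. The change at 1 h was 0.05 ± 0.70 (limma, adjusted p = 1.0), or 0.15 without the array with code 14, and at 4 h against 0 h 1.26 ± 0.70, interval -0.21 to 2.73 (adjusted p = 0.178). With code range added as a block, this 1.26 had an SE of 0.24 and passed (adjusted p = 5.02e-04), as did the 1.22 ± 0.24 between 1 h and 4 h (adjusted p = 9.21e-04). With that block 3 of the 6 genes passed at 1 h, where 1.04% of all probe sets were called higher. At 4 h against 0 h 5 passed, Cxcl1, Cxcl2, Cxcl3, Ppbp and Cxcl5, where 12.6% were. Between 1 h and 4 h 3 passed, Cxcl3, Ppbp and Cxcl5, where 10.6% were. Both later counts hold Cxcl5, which entered the test through its 4 h values, and no call of a member other than Ppbp changed. Within the ranges the 4 h change of Ppbp was 1.87 in codes 12 to 22 and 1.44 in codes 32 to 37 (limma, adjusted p = 9.95e-04 and 0.00755). In codes 44 to 54 it was 0.47 (adjusted p = 0.309), and the F test of a difference between ranges did not pass (adjusted p = 0.314).

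Pf4, platelet factor 4, was among the bright transcripts at every time. Its signal was 13921 to 49043 at 0 h with a median of 32596 (mean 30766 ± 13848, n = 6), 14009 to 41605 at 1 h with a median of 33168 (mean 29542 ± 12064) and 19125 to 44148 at 4 h with a median of 32055 (mean 31915 ± 10098). Over all ranges the arrays of the 3 times overlapped. In codes 32 to 37 both 4 h arrays (19125 and 22141) lay above the 0 h and 1 h arrays, which reached 15562. From the lowest codes to the highest, the change at 4 h against 0 h was 0.17, 0.48 and -0.25 by range. None of these changes passed (limma, adjusted p = 0.605, 0.129 and 0.437). Pf4 ranked as high as 13 among the probe sets of single arrays, and a ceiling on its change was not tested. Its log2 change was -0.04 ± 0.35 at 1 h, interval -0.78 to 0.70, and 0.13 ± 0.35 at 4 h, interval -0.61 to 0.88 (limma, adjusted p = 1.0 and 0.806). From 1 h to 4 h it was 0.17 ± 0.35 (adjusted p = 0.769). With code 14 left out, the 1 h change was -0.11. Ppbp changed more than Pf4 at 4 h against 0 h by 1.13 (exact permutation, adjusted p = 0.0502 over all arrays and 0.0269 with labels permuted within ranges).

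At equal times Ppbp and Pf4 were the 2 of the 6 genes whose level differed between the code ranges (limma F test, adjusted p = 1.70e-06 and 5.13e-06), where 30.0% of all probe sets passed that test. The count of 2 of 6 is near that share. The median signal of Ppbp over 6 arrays was 560.1 in codes 12 to 22, 362.5 in codes 32 to 37 and 3295 in codes 44 to 54. For Pf4 it was 32652, 15475 and 41240. Ppbp in codes 44 to 54 stood 6.71-fold above codes 32 to 37 (log2 difference 2.75 ± 0.24, limma, adjusted p = 2.94e-06), and Pf4 stood 2.49-fold above (1.32 ± 0.13, adjusted p = 8.42e-06). All probe sets were called in that contrast at a rate of 17.2%.

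Codes 44 to 54 exceeded codes 12 to 22 by 1.87 ± 0.24 for Ppbp (limma, adjusted p = 3.89e-05) and by 0.27 ± 0.13 for Pf4, which did not pass (adjusted p = 0.172), against 19.2% of all probe sets. Codes 32 to 37 lay below codes 12 to 22, with log2 differences of -0.88 ± 0.24 for Ppbp and -1.05 ± 0.13 for Pf4 (limma, adjusted p = 0.0175 and 7.92e-05), against 17.8% of all. For Cxcl1, Cxcl2, Cxcl3 and Cxcl5 the F test gave adjusted p = 0.83, 0.259, 0.326 and 0.339. After the means of the times were removed, Ppbp and Pf4 correlated at r = 0.82 over the 18 arrays, as a description of arrays that share their code ranges.

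The mean log2 value of the 10 platelet and megakaryocyte markers was 6.51 ± 0.20 (SD, n = 6), 6.62 ± 0.22 and 6.80 ± 0.18 in codes 12 to 22, 32 to 37 and 44 to 54. Of the 7 that passed the filter 1, Itgb3, an integrin subunit that macrophages also express, differed in level between the ranges by the F test, with mean signals of 12.8, 70.2 and 195.0 (limma, adjusted p = 2.10e-05), and 3 of the 7 were lowest in codes 32 to 37. The stromal markers stood at 6.97, 8.17 and 9.55, lowest in codes 12 to 22, while Ppbp and Pf4 were lowest in codes 32 to 37. The stromal markers, Ppbp and Pf4 were all highest in codes 44 to 54. All 6 stromal markers that passed the filter differed in level by the F test. The 5 endothelial markers had mean log2 values of 5.93, 6.56 and 7.18, and 3 of the 4 that passed the filter differed in level, Cdh5, Kdr and Emcn. Of the 2 epithelial markers that passed the filter 1, Krt8, differed. The 10 neutrophil markers had mean log2 values of 8.03, 7.54 and 6.80. Of the 7 that passed the filter 5 differed in level, S100a8, S100a9, Camp, Ngp and Mmp8, and 6 were lowest in codes 44 to 54, while Csf3r was highest there, at a mean signal of 681.7, 591.6 and 778.6. The 11 macrophage markers had mean log2 values of 13.59, 13.65 and 13.85. Of these 6 differed in level, Adgre1, Cd68, Mrc1, Cd14, Fcgr1 and C1qa, where 30.0% of all probe sets did. In mean signal 5 of the 11 were lowest in codes 32 to 37, 4 in codes 12 to 22 and 2 in codes 44 to 54, while 6 were highest in codes 44 to 54. The part of all these markers in the levels of Ppbp and Pf4 was not tested, and more cells of a type and more RNA per cell cannot be told apart in such samples.

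The time courses of the risen genes were compared between the code ranges with a mean for each time and range. At 1 h 0 members passed the F test for a difference between ranges, and 0% of all probe sets did (limma, 916 of 25775 and 1 of the 6 members at an unadjusted p under 0.05). At 4 h against 0 h 0 of the 6 passed (1 unadjusted), against 0.838% of all, and between 1 h and 4 h 0 of the 6 (3 unadjusted), against 1.25%. The 1 h rise of Cxcl2 was 4.91, 5.26 and 5.01 in codes 12 to 22, 32 to 37 and 44 to 54. In codes 12 to 22 it rests on arrays that differed, and was 3.81 without code 20, 3.92 without code 18, 5.89 without code 12 and 6.0 without code 14. That of Cxcl1 was 4.04, 6.86 and 6.53, and that of Cxcl3 1.48, 3.91 and 3.93. The later change of Cxcl3 was 6.68, 3.02 and 3.87 (F test, adjusted p = 0.0974), and codes 32 to 37 differed from 12 to 22 by -3.66 ± 0.83 (limma, adjusted p = 0.045).

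Codes 12 to 22 hold only 2 arrays at 1 h, and these differed widely: Cxcl1 read 1129.7 with code 14 and 20373 with code 20, and Cxcl3 read 106.0 and 731.4. Without code 14 the 1 h rises in that range were 6.11 for Cxcl1 and 2.79 for Cxcl3, from the array with code 20 alone, which is then assumed to vary like the other groups. The Cxcl3 difference between codes 32 to 37 and 12 to 22 in the later change passed with both of these arrays and when either was left out (limma, adjusted p = 0.0247 without code 14 and 2.78e-04 without code 20), the last with code 14 alone standing for the range at 1 h. Leaving out any 1 of the 16 other arrays it did not pass (limma, adjusted p = 0.0652 to 0.162). After the means of the times were removed, Cxcl1 and Cxcl3 correlated at r = 0.86, Cxcl1 and Cxcl2 at 0.69 and Cxcl2 and Cxcl3 at 0.72 over the 18 arrays, all of which include the array with code 14.

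The genes most like each member were the 5 with the highest Pearson r of log2 values over the 18 arrays, which share the times, so that r describes a common course. Cxcl1 was followed by Tnf (0.98), Tnfaip3 (0.98), Socs3 (0.98), Pim1 (0.96) and Ccl2 (0.95), and Cxcl2 by Tnfaip3 (0.98), Tnf (0.97), Socs3 (0.95), Nfkbia (0.95) and Pim1 (0.94). The lists of these 2 early genes thus held Tnf, Tnfaip3, Socs3 and Pim1 in common. For Cxcl3 they were Sod2 (0.99), Stx11 (0.98), Ets2 (0.98), Tnip1 (0.98) and Osgin2 (0.98), with none of the names above. This split was not kept once the means of the times were removed. The lists of Cxcl1 and Cxcl2 then had no name in common. Ccl2 was on those of Cxcl1 (0.89) and Cxcl3 (0.88), and Ccnl1 on those of Cxcl2 (0.88) and Cxcl3 (0.89). Cxcl5 was nearest to Mak16 (0.93), Mtdh (0.92), Gtpbp4 (0.92), Srsf6 (0.92) and Rrs1 (0.91). Ppbp was nearest to Tmem176b (0.92), Xylt2 (0.91), Myo10 (0.90), Fyb (0.90) and Arf4 (0.88), and Pf4 to Sacm1l (0.93), Asap1 (0.92), Tmem135 (0.92), Erbin (0.91) and Nrp (0.90).

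The gene lists that follow are read against the shares of all tested probe sets called higher and lower, which were 0.613% and 0.140% at 1 h, 9.95% and 23.1% for 4 h relative to 0 h, then 7.71% and 16.7% for 4 h relative to 1 h. Without the array with code 14, 1.20% were called higher and 109 of 25775 lower at 1 h. Between 1 h and 4 h 6.88% were then called higher and 3674 of 25775 lower. Of the list called upstream cytokines and receptors 11 of 11 were tested, while whether each acts upstream of these chemokines was not tested. Of the 11 genes 2 rose at 1 h, 9 at 4 h against 0 h and 6 between 1 h and 4 h, and none fell (limma, 0 lower also unadjusted). The median log2 fold changes were 0.62, 2.82 and 1.40. Leaving out code 14, 4 rose at 1 h, Il1a and Tlr2 besides Tnf and Il1b, and 4 between 1 h and 4 h. Tnf, the inflammatory cytokine, went from a mean signal of 168.1 ± 96.7 (SD, n = 6) at 0 h to 13213 ± 6869 at 1 h, a rise of 6.04 ± 0.57 (limma, adjusted p = 4.25e-05), and stood 6.85 ± 0.57 above 0 h at 4 h. Il1b rose by 4.47 ± 1.01 at 1 h (adjusted p = 0.0448), 5.43 without the array with code 14 (adjusted p = 3.74e-04), and 5.78 ± 1.01 at 4 h (adjusted p = 2.88e-04). Il6, which acts on hepatocytes and lymphocytes, rose at 4 h by 6.08 ± 0.86 (adjusted p = 3.86e-05) and had a change of 1.75 ± 0.86 at 1 h (adjusted p = 0.76). Il1a rose at 4 h by 5.24 ± 0.71 (adjusted p = 2.56e-05). Il1a, Il6 and Csf2, all among the 9 genes that rose at 4 h, had mean 0 h signals of 12.8, 22.1 and 15.3. These are close to the pseudocount, so the sizes of their rises depend on it, as for Cxcl5. Their 4 h signals also varied widely, with means of 1688 ± 1937 (SD, n = 6), 5577.5 ± 7237 and 642.8 ± 1055.

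Of the transcription factors and their feedback inhibitors 14 of 15 were tested: 4 rose and 0 fell at 1 h (limma, 0 lower also unadjusted), 9 rose and 1 fell at 4 h against 0 h, and 6 rose and 2 fell between 1 h and 4 h, with medians of 0.97, 1.15 and 0.50. Those of the first hour were Egr1, an immediate early factor (3.07 ± 0.49), Nfkbiz, an inducible cofactor of NF-kB (2.96 ± 0.48), Junb, an AP-1 subunit (2.01 ± 0.27), and Nfkbia, the inhibitor that NF-kB induces (1.20 ± 0.16), with adjusted p between 7.35e-04 and 0.00405 (limma). With code 14 left out, Cebpb also passed at 1 h, which made 5, and 5 rose and 2 fell between 1 h and 4 h. At 4 h the largest rises were those of the NF-kB subunit gene Nfkb2 (2.92 ± 0.33), Nfkbiz (2.87 ± 0.48), Cebpd (2.44 ± 0.27) and Rel (2.19 ± 0.33). Fos, the AP-1 subunit, fell by 1.31 ± 0.30 against 0 h (adjusted p = 0.00257) and, with Egr1, between 1 h and 4 h.

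The message decay list holds proteins that destabilise or stabilise messages, some of them through AU-rich elements, a feature of these chemokine messages. Of its 9 genes, all tested, 2 rose at 1 h and 0 fell (limma, 0 lower also unadjusted), 3 rose and 2 fell at 4 h against 0 h, and 1 rose and 2 fell between 1 h and 4 h, with medians of 0.06, 0.28 and 0.22. The falls, 2 of 9 in both later comparisons, are near the shares of all probe sets called lower. Leaving out code 14, 2 rose at 1 h, and 1 rose and 3 fell between 1 h and 4 h. Zfp36, which encodes the destabilising protein tristetraprolin, rose by 1.95 ± 0.28 at 1 h (limma, adjusted p = 0.00133) and stood at 1.58 ± 0.28 at 4 h (adjusted p = 2.96e-04). Zc3h12a, which encodes the RNase Regnase, rose by 1.88 ± 0.34 and 3.03 ± 0.34 (adjusted p = 0.0102 and 3.94e-06). The Zfp36 relatives Zfp36l2 and Zfp36l1 changed by -2.86 ± 0.29 and -1.96 ± 0.20 at 4 h (adjusted p = 1.17e-06 and 1.64e-06), both falls.

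Of the receptors and decoys of the chemokines 5 of 8 were tested. At 1 h 0 of the 5 passed (limma, 0 unadjusted), and at 4 h against 0 h and between 1 h and 4 h 1 fell and 0 rose (0 and 1 higher unadjusted), with medians of -0.15, 0.02 and -0.09. The one that fell was Cxcr4, the receptor of Cxcl12, from a mean signal of 6023 ± 1212 (SD, n = 6) at 0 h to 548.2 ± 337.7 at 4 h, a log2 change of -3.78 ± 0.44 (adjusted p = 5.16e-06). Cxcr2, the receptor for these ligands, did not pass the filter and read 6.62 to 93.5 on single arrays. Ackr3 did not pass either, and Cxcr1 was not analysed here, nor was Nfkb1 of the transcription factors.

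Of the genes for matrix binding and processing, such as proteoglycans that hold chemokines and proteases that trim them, 12 of 14 were tested. At 1 h 0 passed (limma, 1 higher and 0 lower unadjusted), and 3 rose and 1 fell both at 4 h against 0 h and between 1 h and 4 h, with medians of -0.01, 0.41 and 0.52. With code 14 left out, 1 rose at 1 h, Sdc4, and 2 rose and 1 fell between 1 h and 4 h. Sdc4, a cell surface heparan sulfate proteoglycan, rose by 2.70 ± 0.28 at 4 h (limma, adjusted p = 1.37e-06), and Srgn, the proteoglycan of secretory granules, by 0.98 ± 0.22 (adjusted p = 0.0024). The sheddase gene Adam17 rose by 0.86 ± 0.16 (adjusted p = 4.22e-04), and Adam10 changed by -0.68 ± 0.11 (adjusted p = 1.85e-04), a fall.

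Among the CXC chemokines outside the group 6 of 8 were tested. At 1 h 0 of the 6 passed (limma, 1 higher and 0 lower unadjusted), and 3 rose and 0 fell at 4 h against 0 h and between 1 h and 4 h (0 lower unadjusted), with medians of 0.05, 0.48 and 0.63. Leaving out code 14, 1 rose at 1 h, Cxcl10, and 1 between 1 h and 4 h. Cxcl10 and Cxcl11, attractants of T cells through CXCR3, rose by 3.93 ± 0.60 and 2.13 ± 0.45 at 4 h (limma, adjusted p = 8.47e-05 and 0.00136). Cxcl16, a membrane bound chemokine, rose by 0.91 ± 0.26 (adjusted p = 0.0133). Cxcl9 and Cxcl15 did not pass the filter. Across these 6 lists quantile normalization and median centring moved counts by at most 2 genes and the number of falls in none.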

How the data were processed

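The authors deposited 1 intensity per probe set and array, on a linear scale, made with MAS5 in GCOS per the submitters' processing notes, which give no version or setting here. The mean intensity was 500.0 on every array once values outside the percentiles 2 to 98 were dropped, as scaling to a trimmed mean leaves it. Array medians were 86.2 to 108.1 at 0 h and 1 h and 74.7 to 87.5 at 4 h, so quantile normalization and median centring were run as alternatives.

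Samples were grouped by the time in their labels, with replicates numbered in accession order, a number that pairs nothing. Symbols came from the platform's annotation (34958 probe sets with a single symbol, 932 with several), and 64 controls were left out. Where a gene had several tested probe sets, the brightest by mean log2 value stood for it. In R 4.3.3, limma 3.58.1 (lmFit, eBayes) was run on log2(signal + 16) over all 18 arrays with 1 mean per time, and p-values were adjusted by Benjamini-Hochberg over 25775 probe sets. Code ranges entered as a block, or with times as 9 means. Pairs of members were compared by exact permutation tests. Alternatives were other pseudocounts, filters, scalings, blocks and sample sets, and each array left out. The limma fit of 4 h against 0 h was tested on simulated data with known shifts at 4 h, and the other tests were not.

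The members, lists, markers and tests were chosen with earlier results of these data known. From each list up to 4 genes past the threshold with the largest change were to be named. The genes most like a member were the 5 with the highest Pearson r. Other genes named were chosen after their values were seen. Promoter sequences come from RefSeq, build GRCm38.p6; array coordinates were not used.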

Additional observations from a re-analysis of the deposited data

Results flagged for a closer look

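In 24 groups of 6 arrays, 1 for each of the 8 probe sets at each time, the gap of an extreme array to its neighbour was set against the range of the group on the log2 scale, and compared with the 95% critical value of Dixon for 6 values, which chance passes in about 1 group in 20. The 1 h array with code 14 was low for Cxcl1, with a ratio of 0.793 and a signal of 1129.7, and for the second probe set of Cxcl1, with a ratio of 0.908 and a signal of 816.9. The same array was low for Cxcl2, with a ratio of 0.786 and a signal of 7880. The 0 h array with code 18 was low for Cxcl2, with a ratio of 0.766 and a signal of 268.1.

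The change of Cxcl3 between 1 h and 4 h differed between codes 32 to 37 and 12 to 22 (limma, adjusted p = 0.045), and did not pass when any 1 of the 16 arrays other than the 1 h arrays with codes 14 and 20 was left out. The second probe set of Cxcl1 changed by -0.66 between 1 h and 4 h in codes 32 to 37, where both 4 h arrays were below both 1 h arrays, while both were above in codes 12 to 22 and 44 to 54. The F test over the 3 ranges did not pass for it (limma, adjusted p = 0.299).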

How the results depend on the processing

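The labels give no replicate numbers to pair samples by, and what the array codes stand for is not stated. Runs of neighbouring codes, each with 1 array of every time, were therefore tried as a block on 12 arrays as an alternative only. Each change of a member was recomputed under 28 to 31 alternatives. The results of Cxcl1, Cxcl2, Cxcl3 and Cxcl5 kept their direction and side of the threshold in all of them except 2, for the 1 h rises. With the block of runs on 12 arrays, the 1 h changes of Cxcl1, Cxcl2 and Cxcl3 were 5.45, 5.08 and 2.70 and did not pass (limma, adjusted p = 0.33, 0.3 and 0.479). There 0 members and 0 of all probe sets passed at 1 h (limma, 3 members and 1970 probe sets unadjusted). In the same 12 arrays without the block, chosen after seeing the data, Cxcl1 and Cxcl3 did not pass either at 5.45 and 2.70, and 1 member and 1 of all probe sets passed, so the count is lower in these arrays with and without the block.

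Ppbp passed with the code range block, at 1.26 against 0 h and 1.22 against 1 h, and in the 12 arrays with and without the block of runs, at 1.66 and 1.60. In those arrays the 1 h change of Pf4 was 0.0098 with and without the block. Leaving out each array in turn, 4 changes that were not called crossed 0: for Ppbp at 1 h from -0.37 to 0.49, and for Pf4 from -0.24 to 0.15 at 1 h, from -0.065 to 0.30 against 0 h and from -0.017 to 0.31 against 1 h at 4 h. With a filter above the array median on all 18 arrays, Cxcl3 and Cxcl5 were not tested, so that 2 members were called at 4 h against 0 h and 0 between 1 h and 4 h (limma, 0 also unadjusted).

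Leaving out arrays in the range tests was chosen after seeing the data. The number of members with a range dependent change ran from 0 to 2 at 1 h and from 0 to 2 between 1 h and 4 h, with 2 only without the 1 h array with code 20, which leaves the array with code 14 alone for its range and time. The pairwise test of codes 32 to 37 against 12 to 22 gave 1 between 1 h and 4 h, Cxcl3. Without code 14, between 1 h and 4 h, the upstream list had 4 rises against 6 and the other CXC chemokines 1 against 3. Of all probe sets 6.88% were then called higher, against 7.71%. Of the 45 pair differences 29 to 34 passed.

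Of all probe sets, 158 were called higher and 36 lower at 1 h. The higher calls were 309 without the array with code 14, 98, 95, 99 and 104 without those with codes 54, 51, 36 and 33, 267 with the code range block and 84 from the 12 arrays of both times alone. The lower calls ran from 13 to 109 over single arrays left out. Median centring moved the higher calls at 4 h against 0 h from 2564 to 4205 and the lower from 5966 to 2673. Between 1 h and 4 h it moved them from 1988 to 3455 and from 4297 to 1896. Quantile normalization gave 3871 and 2695 lower calls. Signal over background limits Cxcl5 most, since it lay below the array median on 11 of the 12 arrays at 0 h and 1 h.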
